A study of Homo sapiens with 6 samples.

Results

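The genes described here were 10 keratins, taken by name from a table of 58735 genes: KRT7, KRT8, KRT18 and KRT19 of simple or ductal type, KRT6A, KRT13, KRT15 and KRT17 of squamous type, and KRT80 and KRT81, which were assigned to neither. They were measured by RNA sequencing of AsPC-1 cells, a human pancreatic cancer cell line, in 3 libraries of cells given the empty virus (Vector, genotype WT) and 3 libraries of cells given a lentivirus for MMP28 overexpression (OE-MMP28). MMP28 encodes a secreted matrix metalloproteinase. Its virus carried GFP, a puromycin resistance cassette and the MMP28 cDNA, and stably infected cells were selected with puromycin; what else the empty virus carried is not given in the sources used here. Nothing in the labels says that the 3 samples of a group came from separate cultures, so p-values measure only the spread between these samples, which may be technical.

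Keratins are the intermediate filament proteins of epithelial cells. A filament is built from pairs of a type I (acidic) and a type II (basic) keratin, and the usual pair in simple epithelium, such as that of the pancreatic duct, is KRT18 (type I) with KRT8 (type II). Duct cells also carry KRT19, a short type I keratin, and KRT7, a type II keratin, and pathologists use both to recognise ductal cancer. Stratified squamous epithelium uses other pairs: KRT15 (type I) marks its basal layer, KRT13 (type I) the upper layers of mucosa, and KRT6A (type II) and KRT17 (type I) are induced in injured or activated epithelium. KRT80 is a type II keratin found in many epithelia, and KRT81 is a type II keratin of hair. Desmosomes and hemidesmosomes anchor the filaments at the cell membrane. The 10 genes lie in the keratin clusters of chromosomes 12 and 17, with KRT18 the type I gene that sits on chromosome 12 next to KRT8.

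MMP28 itself was examined first. Its level in FPKM (read fragments divided by the gene's length in kilobases and by the library's size) was 5.17, 9.11 and 8.43 in the Vector libraries and 13.1, 13.9 and 15.1 in the OE-MMP28 libraries, with no overlap. Here and below, the values of a group are listed in the order of replicates 1, 2 and 3. The log2 fold change (log2FC, OE-MMP28 minus Vector) was 0.90 (SE 0.19, adjusted p = 0.00226). Every adjusted p below comes from the quasi-likelihood fit of edgeR over all genes, corrected by the Benjamini-Hochberg procedure, unless another test is named. The two-sided exact permutation test of the FPKM values gave p = 0.1, and no lower p is possible with 3 libraries a group. Libraries held between 13633249 and 16691458 counts, so a count of 0 allowed a level of up to 0.180 to 0.220 CPM, a count scaled by library size, for counting error only. Of the 9 epithelial markers, 4 of them keratins described here, 8 were tested, 2 were higher (KRT19 and MUC1), 2 were lower (CDH1 and CEACAM6) and 4 did not pass, and their summed level was 3023 to 4036 FPKM in the Vector libraries and 3911 to 4592 FPKM in the OE-MMP28 libraries. The epithelial surface gene EPCAM was expressed in both groups (313 ± 12.2 and 288 ± 35.6 FPKM, SD, n = 3). CDH1, which encodes E-cadherin, was lower in the OE-MMP28 group (log2FC -0.59, SE 0.16, adjusted p = 0.0113). Of the 5 fibroblast markers LUM alone passed the filter on low counts, the others did not exceed 11 counts per library, and the summed level of the 5 was 33.9 to 40.9 FPKM in the Vector libraries and 39.3 to 57.0 FPKM in the OE-MMP28 libraries. The 4 leukocyte markers summed to 1.01 to 1.14 FPKM in the Vector libraries and 0.653 to 0.860 FPKM in the OE-MMP28 libraries, with CD3E at 0 in all of them. Only 1 leukocyte marker was tested, and it did not pass. The 3 endothelial markers summed to 0.0441 to 0.170 FPKM in the Vector libraries and 0.179 to 0.293 FPKM in the OE-MMP28 libraries. Among them 2 were tested, 1 was called higher and 1 did not pass. Of 4 acinar and 3 endocrine markers, PRSS1, CPA1, AMY2A, INS and GCG had no counts in any library. Mitochondrial genes took 11.9%, 14.5% and 14.8% of the counts in the Vector libraries and 11.5%, 8.80% and 11.9% in the OE-MMP28 libraries. The part of these other markers and of the mitochondrial share in the keratin results was not tested beyond a fit without mitochondrial genes, in which the same members were called. In bulk RNA, fewer cells that express a gene and less of its RNA per cell cannot be told apart.

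KRT19 and KRT80 were higher in the OE-MMP28 group, by 1.64-fold and 2.05-fold, and the other members did not pass the test. Of the 10 keratins, 6 passed the filter on low counts, 2 of these were called higher at an adjusted p under 0.05, 0 were called lower and 4 did not pass. Among all 15319 genes tested, 23.4% were called, 11.7% higher and 11.6% lower. The count of 0 lower was also 0 at an unadjusted p under 0.05 and with DESeq2 and limma, while 4 were higher at an unadjusted p under 0.05. The share of all genes under that unadjusted cut was not computed, so the unadjusted counts cannot be judged against it. All 6 tested keratins had a log2FC above 0, with a median of 0.55, and the median over all genes tested was 0.014. Only 5 were above 0 when Vector replicate 3 or OE-MMP28 replicate 3 was left out, since KRT15 turned. Vector replicate 2 weighed on the count of keratins called higher, since 4 keratins (KRT7, KRT8, KRT19 and KRT80) were called when it was left out. With limma on log2(FPKM + 1) and no filter on low values, 0 of them were called and 2 had an unadjusted p under 0.05.

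**Figure D1:**
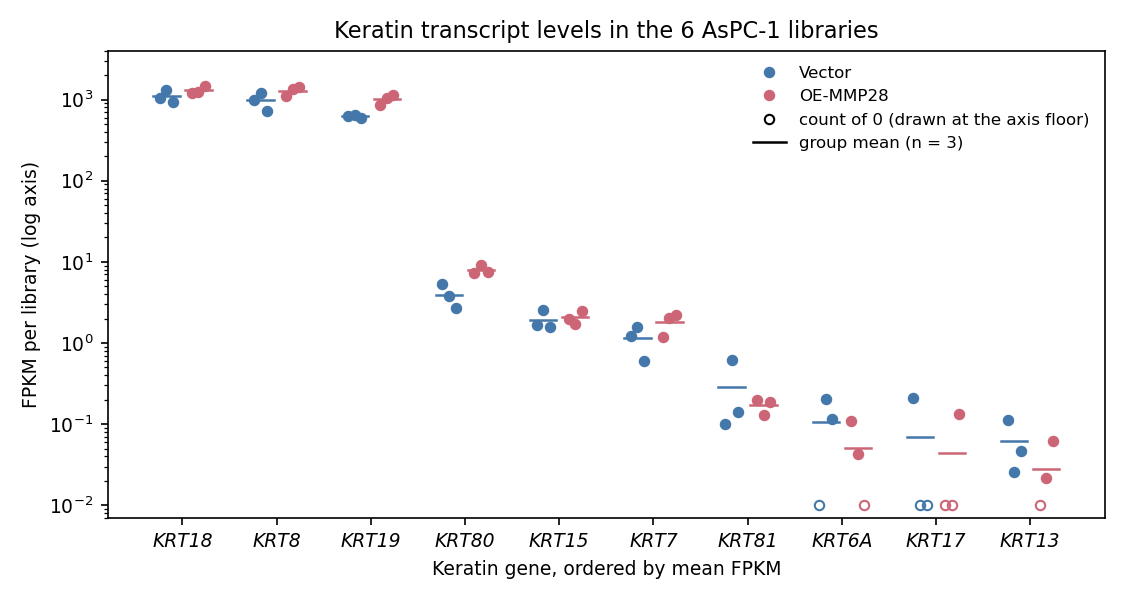
Level of each of the 10 keratins in FPKM on a log axis, with 1 point per library, open circles at the axis floor for a count of 0, and bars for group means (n = 3). KRT18, KRT8 and KRT19 lie between 587 and 1455 FPKM, KRT80, KRT15 and KRT7 between 0.597 and 9.25 FPKM, and the other 4 at or below 0.614 FPKM.

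KRT8 and KRT18, the pair of simple epithelium, were the most abundant keratins in both groups and did not pass the test between them. KRT8 (ENSG00000170421, chromosome 12, 52897187 to 52949954, minus strand) was at 989, 1205 and 732 FPKM in the Vector libraries and at 1106, 1334 and 1428 FPKM in the OE-MMP28 libraries. The groups overlapped, because Vector replicate 2 lay above OE-MMP28 replicate 1. The group means were 975 ± 237 and 1289 ± 166 FPKM (SD, n = 3), and the log2FC was 0.42 (SE 0.17, 95% interval 0.06 to 0.77) with an unadjusted p of 0.0234 and an adjusted p of 0.0816 by edgeR. Without Vector replicate 2, the highest Vector library for this gene, the log2FC was 0.59 (adjusted p = 0.0064). Without Vector replicate 3, the lowest, it was 0.25 (adjusted p = 0.381). With no filter on low counts it was 0.41 (adjusted p = 0.0451), and over all 19 alternatives the adjusted p ran from 0.0064 to 0.494.

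KRT18 (ENSG00000111057, chromosome 12, 52948871 to 52952901, plus strand) was at 1038, 1311 and 934 FPKM in the Vector libraries and at 1209, 1226 and 1455 FPKM in the OE-MMP28 libraries. Again Vector replicate 2 lay inside the OE-MMP28 range, and the means were 1095 ± 194 and 1297 ± 137 FPKM (SD, n = 3). The log2FC of KRT18 was 0.26 (SE 0.15, 95% interval -0.06 to 0.58, adjusted p = 0.241), an interval that includes 0 and also a rise of 1.49-fold. Exons of KRT8 and KRT18 overlap on opposite strands by 525 bases, which is 7.63% of the exon length of KRT8 and 16.3% of that of KRT18. Whether the counting used the strand is not given in the sources used here, and reads from the overlap cannot be told apart without it.

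KRT19 (ENSG00000171345, chromosome 17, 41523617 to 41528308, minus strand) differed most clearly among the abundant keratins. It was at 632, 654 and 587 FPKM in the Vector libraries and at 858, 1047 and 1133 FPKM in the OE-MMP28 libraries. Every OE-MMP28 library lay above every Vector library, and the lowest of them stood above the highest Vector library by far more than the spread of the Vector group. The means were 624 ± 34.1 and 1012 ± 140 FPKM (SD, n = 3), and the log2FC was 0.71 (SE 0.15, 95% interval 0.40 to 1.02, adjusted p = 0.0017). The groups did not overlap in 2 of the 6 tested keratins, KRT19 and KRT80, where 38.1% of all genes tested had groups that did not overlap and 19.0% did so with OE-MMP28 higher. Leaving out any library kept the log2FC of KRT19 between 0.62 and 0.81, and the call was lost in 1 of 19 alternatives, limma on log2(FPKM + 1) with no filter (0.69, adjusted p = 0.126). The exact permutation test of its FPKM gave p = 0.1, the smallest possible value.

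KRT7 (ENSG00000135480, chromosome 12, 52232520 to 52252186, plus strand), the other ductal marker, was expressed at a far lower level than KRT19. Its counts were 77, 88 and 36 in the Vector libraries and 76, 132 and 153 in the OE-MMP28 libraries, which gave 1.23, 1.59 and 0.597 FPKM against 1.17, 2.03 and 2.22 FPKM. OE-MMP28 replicate 1 lay inside the Vector range, and Vector replicate 3 lay below all other libraries. The log2FC was 0.69 (SE 0.31, 95% interval 0.04 to 1.33) with an unadjusted p of 0.0383 and an adjusted p of 0.116, so it did not pass the test. Without Vector replicate 2 the log2FC was 1.00 (adjusted p = 0.0216), and without Vector replicate 3 it was 0.38 (adjusted p = 0.438). Antisense gene KRT7-AS overlaps 6.89% of the exon length of KRT7 and the pseudogene KRT87P overlaps 0.782%, both on the opposite strand.

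KRT80 (ENSG00000167767, chromosome 12, 52168996 to 52192000, minus strand) had the largest change among the tested members. It was at 5.34, 3.74 and 2.71 FPKM in the Vector libraries and at 7.25, 9.25 and 7.47 FPKM in the OE-MMP28 libraries, from between 174 and 638 counts. The groups did not overlap. The means were 3.93 ± 1.32 and 7.99 ± 1.10 FPKM (SD, n = 3), and the log2FC was 1.03 (SE 0.21, 95% interval 0.60 to 1.47, adjusted p = 0.0014). In the leave-one-out fits it stayed between 0.83 and 1.32, and the call was lost in 1 of 19 alternatives, again limma on log2(FPKM + 1) with no filter (0.89, adjusted p = 0.0913). The exact permutation p of its FPKM was 0.1, the smallest possible value.

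Neighbouring genes had medians close to 0. The median log2FC of the tested genes within 5 Mb on either side, keratins left out, was 0.061 around KRT80 (178 genes), 0.038 around KRT8 (195 genes) and -0.019 around KRT19 (177 genes). With this local median subtracted by an offset, KRT19 and KRT80 remained the 2 members called.

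The squamous keratins were low or near 0, so the squamous part of the set rested on KRT15. KRT15 (ENSG00000171346, chromosome 17, 41513743 to 41522529, minus strand) was at 1.67, 2.57 and 1.57 FPKM in the Vector libraries and at 2.00, 1.73 and 2.49 FPKM in the OE-MMP28 libraries, from 164 to 296 counts. The ranges of the groups overlapped almost entirely. Its log2FC was 0.11 (SE 0.21, 95% interval -0.33 to 0.56, adjusted p = 0.748), and the sign turned when Vector replicate 3 (-0.015) or OE-MMP28 replicate 3 (-0.045) was left out.

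KRT6A, KRT13 and KRT17 did not pass the filter on low counts and were not tested. KRT6A (ENSG00000205420, chromosome 12) had 0, 8 and 5 counts in the Vector libraries and 5, 2 and 0 in the OE-MMP28 libraries. KRT13 (ENSG00000171401, chromosome 17) had 5, 1 and 2 counts in the Vector libraries and 0, 1 and 3 in the OE-MMP28 libraries. KRT17 (ENSG00000128422, chromosome 17) had 10, 0 and 0 counts in the Vector libraries and 0, 0 and 7 in the OE-MMP28 libraries. In each of them the groups overlapped and no library exceeded 10 counts, so KRT15 was the only squamous member that could be tested. The coding sequence of KRT6A was 97.5% identical to that of KRT6B and 97.9% to that of KRT6C, genes whose own counts did not exceed 3 per library, and that of KRT17 was 81.1% identical to KRT14 and 75.7% to KRT16. KRT81 (ENSG00000205426, chromosome 12), the hair keratin, had 3, 16 and 4 counts in the Vector libraries and 6, 4 and 6 in the OE-MMP28 libraries. Vector replicate 2 stood highest for KRT81 and for KRT6A, and KRT81 was 94.7% identical to KRT86 over the aligned coding sequence.

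In order of FPKM the keratins formed 3 levels. KRT18 and KRT8 overlapped in both groups, and KRT19 lay below both of them in every Vector library, with 654 FPKM at most against 732 FPKM at least. In the OE-MMP28 group the highest KRT19 library, at 1133 FPKM, lay above the lowest KRT8 library, at 1106 FPKM. KRT80 followed with group means lower than those of KRT19 by more than 100-fold, above KRT15 in every Vector library and every OE-MMP28 library. KRT15 and KRT7 overlapped in both groups, and KRT81, KRT6A, KRT17 and KRT13 could not be ordered at their counts.

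Keratin transcripts were a visible share of the libraries. The 54 functional keratin genes together took 1.18% ± 0.221 of all counts in the Vector group and 1.56% ± 0.207 in the OE-MMP28 group (SD, n = 3), and KRT8, KRT18 and KRT19 held between 99.4% and 99.5% of these in every library. KRT8 alone took from 0.509% (95% exact binomial interval 0.505 to 0.513) in Vector replicate 3 to 0.991% (0.986 to 0.995) in OE-MMP28 replicate 3. KRT19 took from 0.139% (0.137 to 0.141) in Vector replicate 3 to 0.267% (0.264 to 0.269) in OE-MMP28 replicate 3. These intervals cover counting error only, and they are far narrower than the spread between libraries of a group. Ranked by count among nuclear protein-coding genes, KRT8 was number 2 in every Vector library and in OE-MMP28 replicate 1 and number 1 in the other two OE-MMP28 libraries. KRT19 ranked 26, 27 and 30 in the Vector libraries and 11, 8 and 5 in the OE-MMP28 libraries, with no overlap of the groups.

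**Figure D2:**
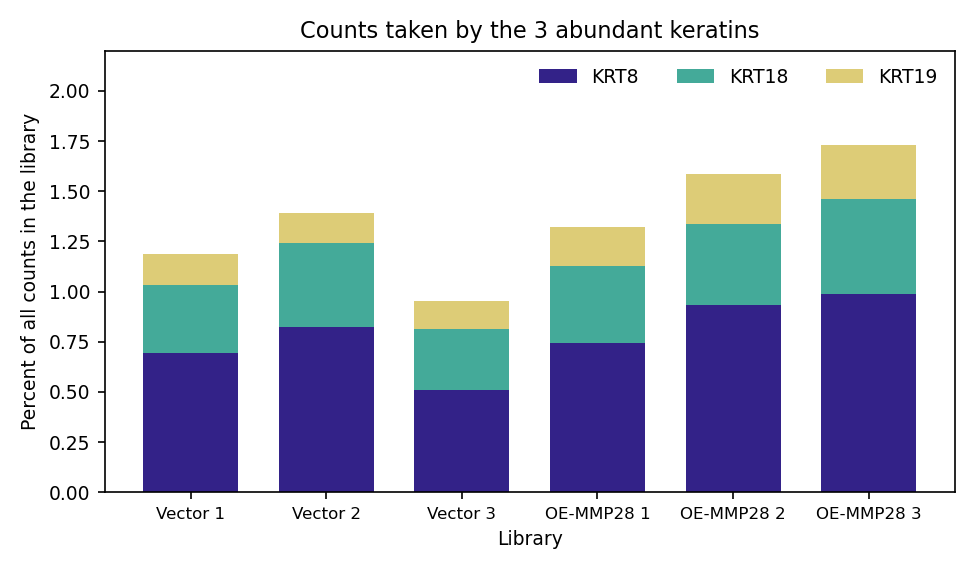
Percent of all counts in each of the 6 libraries taken by KRT8, KRT18 and KRT19, stacked from 0. The KRT19 segment is 0.139% to 0.151% in the Vector libraries and 0.196% to 0.267% in the OE-MMP28 libraries, and the KRT8 segment of Vector replicate 2 (0.822%) is above that of OE-MMP28 replicate 1 (0.745%).

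The balance of the types was examined because type I and type II proteins pair. The summed FPKM of the type I members over that of the type II members was 1.68, 1.63 and 2.07 in the Vector libraries and 1.86, 1.69 and 1.80 in the OE-MMP28 libraries. The groups overlapped, with means of 1.79 ± 0.243 and 1.78 ± 0.0845 (SD, n = 3). The ratio of KRT8 to KRT18 also overlapped, at 0.953, 0.919 and 0.783 in the Vector libraries and 0.914, 1.09 and 0.982 in the OE-MMP28 libraries. KRT19 relative to KRT18 did not overlap, at 0.609, 0.499 and 0.628 in the Vector libraries and 0.710, 0.854 and 0.778 in the OE-MMP28 libraries, a ratio that was chosen after its values were seen. Relative to KRT8, KRT19 was at 0.639, 0.543 and 0.802 in the Vector libraries and 0.776, 0.785 and 0.793 in the OE-MMP28 libraries, and there Vector replicate 3 lay above the other group. KRT6A, KRT13, KRT15 and KRT17 together made up 0.0745%, 0.0882% and 0.0769% of the summed level of the 10 members in the Vector libraries. In the OE-MMP28 libraries they made up 0.0663%, 0.0496% and 0.0666%, and the groups did not overlap. The level of KRT15, which was most of the numerator, overlapped between the groups, and that of KRT19 in the denominator did not. KRT16, which is not a member, is left out of this share, and its group mean rose from 0.538 to 2.10 FPKM. In the Vector group the mean of KRT15 was 1.94 FPKM, far above that of KRT16, and in the OE-MMP28 group it was 2.07 FPKM, below KRT16. With KRT16 counted the share would not fall, so its direction depends on that choice. The fall holds for these members only and is not a result for squamous keratins as a group.

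The gene length behind FPKM decided which keratin ranked highest. The deposited length counts all exons of a gene, and for KRT8 it was 6881 bases, 4.08 times the 1687 bases of its principal transcript, against 3218 and 1562 bases (2.06 times) for KRT18 and 2336 and 1390 bases for KRT19. Recomputed per kilobase of the principal transcript, a scale added after the data were seen, KRT8 was at 4002 ± 932 fragments per kilobase, scaled to the library total, in the Vector group and 5277 ± 761 in the OE-MMP28 group (SD, n = 3). KRT18 was then at 2269 ± 373 and 2678 ± 304, and KRT19 at 1057 ± 51.7 and 1708 ± 263, so KRT8 stood above KRT18 in every library and the order of their mean FPKM was turned. The type I to type II ratio fell below 1 on this scale, to 0.846 ± 0.111 in the Vector group and 0.832 ± 0.0429 in the OE-MMP28 group (SD, n = 3), with overlap as before. Comparisons of a gene between groups are not touched by its length, and comparisons between these genes are.

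**Figure D3:**
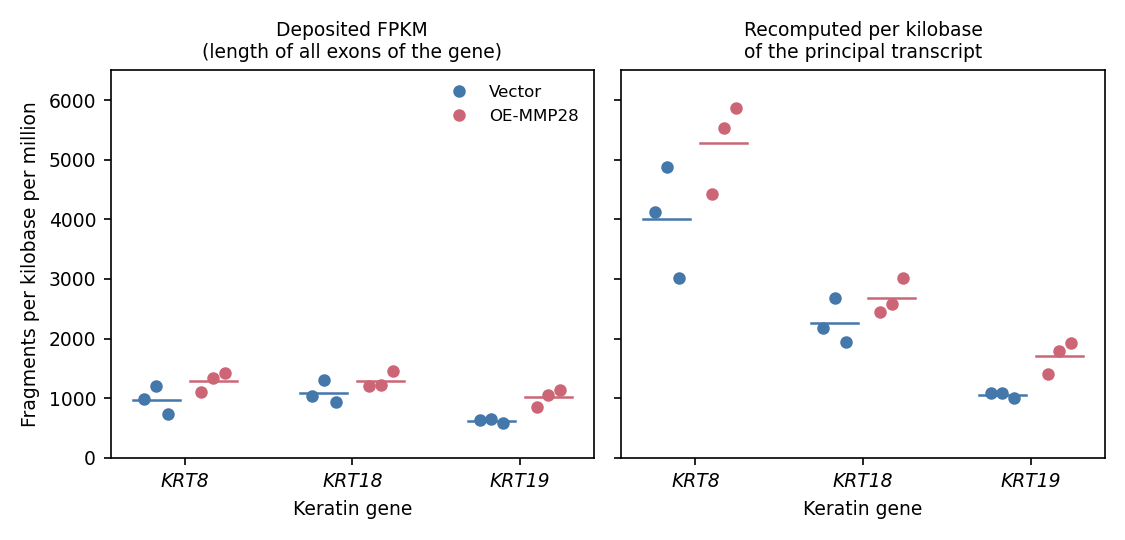
Levels of KRT8, KRT18 and KRT19 per library on the 2 length scales, with bars for group means (n = 3). On the deposited FPKM the mean of KRT18 is above that of KRT8 (1095 against 975 in the Vector group), and per kilobase of the principal transcript KRT8 is highest (4002 against 2269).

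KRT8 and KRT18 have many pseudogenes, most of them copies of the transcript inserted elsewhere in the genome, whose reads can be mistaken for those of the parent. The annotation lists 50 for KRT8, of which 17 had any count, and their counts together were between 0.195% and 0.425% of those of KRT8 in each library. For KRT18 it lists 67, of which 21 had counts, at 0.0279% to 0.0587% of the parent, and the 5 of KRT19 had none. Adding all copies to their parents left the log2FC of KRT8 at 0.41 (adjusted p = 0.0829). With copies at no more than 0.425% of KRT8, this sum could change little. It also cannot show whether reads of a copy were counted for KRT8. A stretch of 120 coding bases of KRT8 (chr12:52904733-52904852, minus strand, bases 214 to 333 of the coding sequence) is printed beside the 2 copies that differed between the groups, KRT8P12 (chr3:160567988-160568107, plus strand) and KRT8P33 (chr5:123402095-123402214, minus strand). Capitals mark the bases that differ from KRT8, 17 in KRT8P12 and 8 in KRT8P33.
KRT8: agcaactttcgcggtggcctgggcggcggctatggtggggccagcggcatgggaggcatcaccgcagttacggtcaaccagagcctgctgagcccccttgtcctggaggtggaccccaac
KRT8P12: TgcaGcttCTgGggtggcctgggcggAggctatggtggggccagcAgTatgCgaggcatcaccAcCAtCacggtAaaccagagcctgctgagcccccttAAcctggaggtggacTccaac
KRT8P33: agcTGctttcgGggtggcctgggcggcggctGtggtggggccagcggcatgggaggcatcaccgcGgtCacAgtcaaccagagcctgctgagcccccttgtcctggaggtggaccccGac
KRT8P12 (ENSG00000229320, chromosome 3), the more diverged at 86.2% identity to the coding sequence of KRT8, was at 3.04, 4.01 and 2.95 FPKM in the Vector libraries and 6.33, 5.95 and 8.01 FPKM in the OE-MMP28 libraries. Its log2FC was 1.04 (SE 0.21, adjusted p = 0.0016), and with the median of its chromosomal neighbourhood subtracted it was 0.47 (adjusted p = 0.146). The FPKM of KRT8P12 relative to that of KRT8 was 0.00307 to 0.00403 in the Vector libraries and 0.00446 to 0.00573 in the OE-MMP28 libraries, with no overlap. This ratio was not planned and was taken for a copy already called higher, so it adds no separate support. KRT8P33 (ENSG00000250539, chromosome 5), at 93.8% identity, had 18, 255 and 21 counts in the Vector libraries and 10, 10 and 18 in the OE-MMP28 libraries. Its lower level in the OE-MMP28 group (log2FC -3.16, SE 0.74, adjusted p = 0.0045) rested on Vector replicate 2, without which it was -0.72 (adjusted p = 0.342). KRT8P3, the closest of the copies compared at 97.1% identity, had 51, 35 and 38 counts in the Vector libraries and 52, 51 and 59 in the OE-MMP28 libraries (log2FC 0.24, SE 0.28, adjusted p = 0.577).

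Of the 44 other functional keratins, 4 passed the filter on low counts, 2 of these were higher, 1 was lower and 1 did not pass the test, with a median log2FC of 0.36. KRT16 (chromosome 17), a type I keratin that is induced together with KRT6A and KRT17 in activated epidermis, had 30, 21 and 7 counts in the Vector libraries and 68, 92 and 92 in the OE-MMP28 libraries. It rose from 0.538 ± 0.311 to 2.10 ± 0.319 FPKM (SD, n = 3), with a log2FC of 1.97 (SE 0.37, adjusted p = 0.00076), while KRT6A, its usual partner, and KRT17 stayed at 10 counts or fewer. KRT10, the type I keratin of differentiating epidermis, was at 10.04, 7.39 and 8.48 FPKM in the Vector libraries and 11.8, 13.6 and 13.2 FPKM in the OE-MMP28 libraries (log2FC 0.58, SE 0.17, adjusted p = 0.0199), a call that was lost in 5 of 19 alternatives. KRT23 (chromosome 17), a type I keratin, fell from 2.44 ± 0.559 to 0.701 ± 0.221 FPKM (SD, n = 3), at a log2FC of -1.79 (SE 0.29, adjusted p = 0.00024), and its groups did not overlap. KRT20, the type I keratin of intestinal epithelium, was named after its values were seen as the remaining tested gene and had a log2FC of 0.15 (SE 0.43, adjusted p = 0.847). Of the 40 keratins that were not tested, 24 had a count of 0 in every library, KRT5 among them, and 35 did not exceed 3 counts per library. KRT86 reached the highest count of the others, 13 in 1 library.

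**Figure D4:**
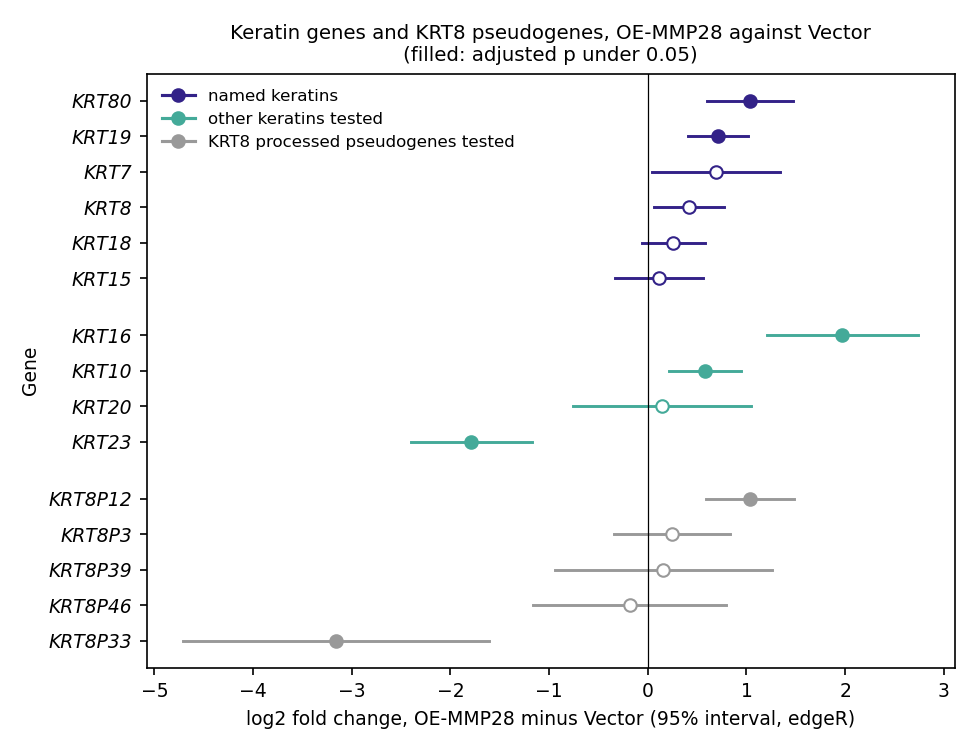
Log2FC of the tested keratins and of the tested KRT8 pseudogenes, OE-MMP28 minus Vector, with the 95% interval of the edgeR fit and filled points where the adjusted p was under 0.05. KRT80, KRT19, KRT16, KRT10 and KRT8P12 are filled to the right of 0 and KRT23 and KRT8P33 to the left, and the interval of KRT18 crosses 0.

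Of 23 proteins that anchor keratin filaments at desmosomes and hemidesmosomes, 19 were tested, 3 were higher, 2 were lower and 14 did not pass, with a median log2FC of -0.16. The 3 higher genes were the plakophilins PKP2 (9.18 ± 0.990 to 13.4 ± 2.92 FPKM, SD, n = 3, log2FC 0.56, adjusted p = 0.0211) and PKP3 (36.1 ± 4.37 to 52.1 ± 9.54 FPKM, log2FC 0.54, adjusted p = 0.0212), which are plaque proteins of the desmosome, and PERP (173 ± 15.6 to 238 ± 30.0 FPKM, log2FC 0.47, adjusted p = 0.0228), a membrane protein of the desmosome. Each of these calls was lost in 7 of 19 alternatives. The desmosomal cadherin DSG3 fell from 18.3 ± 4.48 to 9.80 ± 3.04 FPKM (SD, n = 3, log2FC -0.89, SE 0.21, adjusted p = 0.0040), its groups did not overlap, and the call was lost in 3 of 19 alternatives, all of them limma on FPKM. EPPK1, a plakin that binds keratin filaments, fell from 2.12 ± 0.236 to 1.15 ± 0.147 FPKM (SD, n = 3, log2FC -0.87, SE 0.17, adjusted p = 0.0012), and with the local median subtracted it was -0.45 (adjusted p = 0.0797). Desmoplakin (DSP), which ties keratin filaments to the plaque, had a log2FC of -0.38 (adjusted p = 0.0774), and plectin (PLEC), which does so at hemidesmosomes, of -0.16 (adjusted p = 0.517). These 2 genes were named after their values were seen.

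Among 16 other intermediate filament genes, 7 were tested, 2 were higher and 5 did not pass. LMNA, which encodes lamins A and C of the nuclear envelope, was at 101, 72.7 and 77.8 FPKM in the Vector libraries and 137, 172 and 193 FPKM in the OE-MMP28 libraries, with no overlap. Its log2FC was 1.01 (SE 0.17, adjusted p = 0.00024). LMNB1, another nuclear lamin, rose from 35.4 ± 5.97 to 52.4 ± 6.27 FPKM (SD, n = 3), a log2FC of 0.57 (SE 0.16, adjusted p = 0.0121) that was lost in 4 of 19 alternatives. Vimentin (VIM), the filament of mesenchymal cells, was abundant in both groups at 256 ± 32.2 and 227 ± 25.1 FPKM (SD, n = 3), with overlapping values, and it was named after its values were seen. Its log2FC was -0.16 (SE 0.15, 95% interval -0.47 to 0.14, adjusted p = 0.460). The median over the 7 genes was 0.33.

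Of 26 genes listed for squamous differentiation, 5 passed the filter on low counts, and 12 had no count in any library, among them IVL, which encodes involucrin, LOR, which encodes loricrin, and SPRR3, a small proline-rich protein of the cornified envelope. The 5 tested genes had a median log2FC of 0.33, with 2 called higher and 3 not passing. LYPD3, a surface protein of migrating keratinocytes, was at 9.04, 5.23 and 4.28 FPKM in the Vector libraries and 12.1, 14.6 and 15.2 FPKM in the OE-MMP28 libraries (log2FC 1.19, SE 0.22, adjusted p = 0.00075). S100A2, a calcium-binding protein of basal keratinocytes, was at 3.55, 3.54 and 3.29 FPKM in the Vector libraries and 6.13, 6.52 and 8.46 FPKM in the OE-MMP28 libraries (log2FC 1.04, SE 0.22, adjusted p = 0.0020). Both genes had groups that did not overlap.

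Of 22 transcription factors known for work at keratin genes or in epithelial differentiation, 15 were tested, 2 were higher, 3 were lower and 10 did not pass, with a median log2FC of -0.16. FOXA1, a pioneer factor of endodermal epithelium, fell from 3.90 ± 1.08 to 1.15 ± 0.286 FPKM (SD, n = 3, log2FC -1.75, SE 0.25, adjusted p = 4.4e-05), with no overlap. FOXQ1, another forkhead factor, fell from 6.85 ± 2.11 to 2.18 ± 0.561 FPKM (SD, n = 3, log2FC -1.63, SE 0.25, adjusted p = 0.00011). NFE2L2, the factor of the antioxidant response, had a log2FC of -0.55 (SE 0.15, adjusted p = 0.0105), which with the local median subtracted was -0.13 (adjusted p = 0.617). KLF4, a factor of epithelial differentiation, was at 17.5, 23.8 and 16.7 FPKM in the Vector libraries and 25.3, 27.2 and 27.1 FPKM in the OE-MMP28 libraries (log2FC 0.47, SE 0.16, adjusted p = 0.0378), and the call was lost in 11 of 19 alternatives. The other higher gene, OVOL1, is named although its mean was under 1 FPKM (0.444 ± 0.0914 and 0.874 ± 0.0591 FPKM, SD, n = 3, log2FC 0.99, adjusted p = 0.0259). TP63, the factor of basal squamous cells, did not exceed 9 counts per library and SOX2 had none, and neither was tested.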

How the data were processed

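RNA of AsPC-1 cells was sequenced in 6 libraries, and the sample labels gave each its group and replicate number. The authors deposited raw read counts per gene, made with HISAT2 2.0.5 and featureCounts 1.5.0-p3 per the submitters' processing notes, and FPKM values, which divide the counts by the length of all exons of a gene and a library total within 0.980 to 1.02 times the summed counts. Replicates were not pooled. Genome build and strand setting are not given in the sources used here. All 58735 identifiers and coordinates matched GENCODE release 29 (GRCh38), and 58708 symbols did. The deposited log2 fold changes, p-values, adjusted p-values and group means of the authors' own comparison were not used, and 0 per-sample columns were left unmapped. The 10 keratins and all gene lists were chosen with earlier results of these data known.

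Counts were fitted with edgeR 4.0.16 in R 4.3.3 (quasi-likelihood, TMM, group alone), on genes that passed filterByExpr (count 10, total 15), and p-values were adjusted over 15319 genes by the Benjamini-Hochberg procedure. The study's methods name limma with p under 0.05, and limma 3.58.1 and DESeq2 1.42.0 served as alternatives, beside other scalings, other filters, a replicate block, summed copies, an offset for the local median, no mitochondrial genes and each library left out. Totals of 13633249 to 16691458 counts per library set the precision. The main fit did not pair the samples by replicate number. No library was a copy of another: a chi-square on their counts, divided by its degrees of freedom, was 15.3 or more for every pair. Genes of the other lists were named when the adjusted p was under 0.05 and the mean at least 1 FPKM, up to 4 per direction and list, and pseudogenes of a member when the mean was at least 1 FPKM. Of the alternatives, 1, the principal transcript length, was added after the data were seen. The edgeR, DESeq2 and limma fits and the offset for the local median were tested on simulated data. The ratios, rankings and sequence comparisons were not tested in this way.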

Additional observations from a re-analysis of the deposited data

How the results depend on the processing

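Of 10 keratins, 2 were called higher and 0 lower. The count of lower keratins was 0 in all 19 alternatives. The count of higher keratins ran from 2 to 4 in the leave-one-out fits and was 4 without Vector replicate 2. It was 0 when limma was run on unfiltered log2(FPKM + 1), where 30568 genes were tested and MMP28 stood at a log2FC of 0.84 (adjusted p = 0.0903). It was 3 with no filter on low counts (KRT8 added) and 3 with copies summed. With copies summed, the third was KRT17 added to its pseudogenes and to the related keratins KRT14 and KRT16. Most of these counts were those of KRT16, a separate functional gene, so this call is not a result for KRT17. KRT15 reversed without Vector replicate 3 (-0.015) and without OE-MMP28 replicate 3 (-0.045), within a leave-one-out range of -0.045 to 0.37. The log2 ratio of OE-MMP28 over Vector for type I against type II keratins was -0.0068 and ran from -0.072 to 0.11 in the leave-one-out values. It was above 0 without Vector replicate 3 (0.11) and without OE-MMP28 replicate 2 (0.030), which was a change of sign inside the spread between libraries. The cause of these changes was not tested.

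With the replicate number as a block, 2 keratins were higher and 0 lower, as without it, and over all genes 1844 were higher and 1841 lower, against 1795 and 1784. The deviations of same-numbered libraries correlated at 0.017, 0.0080 and -0.088, and those of differently numbered libraries at -0.148 to 0.167. With so few libraries these values cannot show whether any samples were paired. Over all genes the calls fell most under limma with no filter, to 362 higher and 308 lower, and in fits on log2(FPKM + 1) with the filter to 1009 and 965 (1000 and 970 with a pseudocount of 0.1). They were 985 and 1044 without OE-MMP28 replicate 2, 1136 and 1231 without Vector replicate 3, and 1141 and 1231 with the local median subtracted. Scaling moved the median log2FC of all genes by less than 0.1. At the counts of KRT6A, KRT13, KRT17 and KRT81 a change between the groups was not detectable. How far depth or reads shared with similar genes limited these counts was not tested.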
